A study of Mus musculus with 15 samples.

Results

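The 8 genes described here encode 2 neurotrophins (*Bdnf* and *Ntf3*), the p75 neurotrophin receptor (*Ngfr*), 2 Trk receptors (*Ntrk2* and *Ntrk3*), insulin-like growth factor 1 (*Igf1*), its receptor (*Igf1r*) and an IGF binding protein (*Igfbp5*). They were picked by symbol from 38561 genes counted in Purkinje cells (PCs), the output neurons of the cerebellar cortex, and all 8 passed the filter on low counts that left 14293 genes. PCs had been cut out of cerebellar sections of mice labelled C56/BL6 by laser capture microdissection at postnatal day 0 (P0), P4, P8, P14 and P21, with 3 samples at each time point and 15 in all. The paper names the strain C57/BL6. The study used male mice and took 1000 single PC bodies per sample from P4 to P21, but clusters of PCs at P0, so that a difference between P0 and later time points cannot be told apart from the change in capture. Since the genes were chosen with their courses known, and *Ngfr* for its early transient, their values are given as a description without a test.

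Neurotrophins are secreted survival and growth factors made as precursors. Mature BDNF acts through TrkB, the product of *Ntrk2*, and NT-3, the product of *Ntf3*, through TrkC, the product of *Ntrk3*, while p75 binds all neurotrophins and, together with sortilin, their uncleaved precursors. IGF1 acts through its receptor on the PI3K-AKT and ERK cascades, and IGF binding proteins hold IGFs in the extracellular space. In the developing cerebellum neurotrophins and IGF1 are known to act on the survival and dendritic growth of PCs and their neighbours.

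The 6 Purkinje cell markers, among them *Pcp2*, *Calb1* and *Itpr1*, summed to between 4549 and 6007 CPM (counts scaled for library size) at P0 and to between 36886 and 46640 CPM at P21, with all 6 detected at each time point. The 8 markers of Bergmann glia and astrocytes were also detected at each time point, at a mean sum of 4665 CPM at P0, 9162 CPM at P8 and 4131 CPM at P21. The 4 markers of granule cell progenitors summed to between 255 and 291 CPM at P0 and to between 0.212 and 3.04 CPM at P21. That sum consisted of *Barhl1* and of the proliferation genes *Mki67* and *Top2a*, since the defining *Atoh1* was at 0 in every sample. The 4 markers of granule neurons had a mean sum of 231 CPM at P0, 628 CPM at P14 and 379 CPM at P21. The markers of oligodendrocytes had a mean sum of 31.7 CPM at P0 and 573 CPM at P21, and those of microglia lay between 0 and 25.5 CPM in every sample. In such pooled samples fewer cells of a type and less RNA per cell cannot be told apart.

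**Figure D1:**
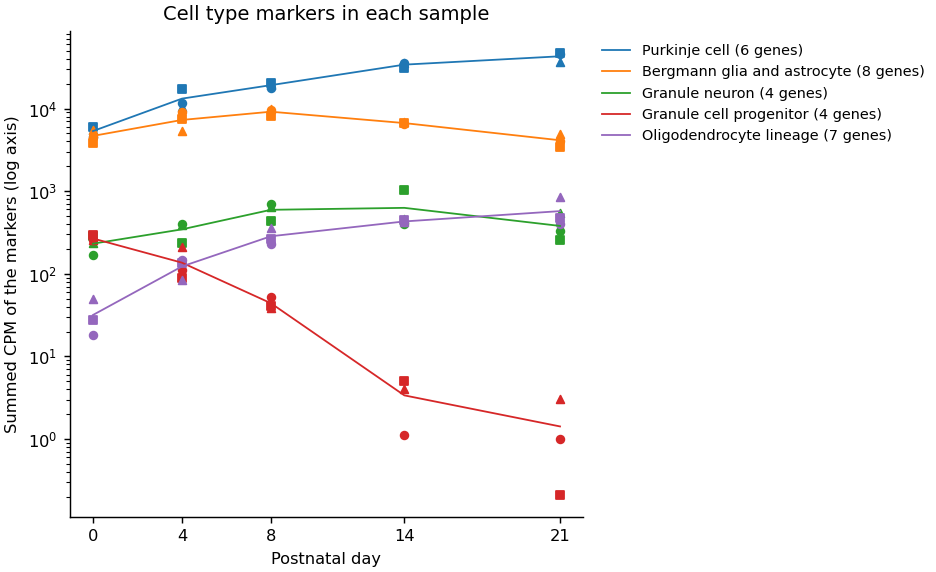
Summed CPM of the markers of 5 cell types (log axis) against postnatal day; lines join the means of 3 samples, and circles, squares and triangles are replicates 1, 2 and 3. The Purkinje cell sum was above the glial sum in mean at each time point, with the smallest gap at P0, and the granule cell progenitor sum had a mean of 268 CPM at P0 and 1.42 CPM at P21.

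*Ngfr*, *Igf1* and *Igfbp5* were the 3 genes of the 8 whose mean was highest at P4, a time point at which 20.5% of the 14293 tested genes had their highest mean. For *Ngfr* this rested on 1 library, since without P4 replicate 3 its P4 mean was 88.2 CPM, below the P8 mean of 97.2 CPM, whereas *Igf1* and *Igfbp5* had their highest mean at P4 with any 1 of the 15 samples left out. Their promoters are shown because these genes shared their time of highest mean. The windows are the 250 bases before the RefSeq gene start on GRCm38.p6, written 5′ to 3′ on the gene's strand, with capitals marking GC boxes (GGGCGG on either strand) and E-boxes (CANNTG).
*Ngfr*, chr11:95587699-95587948, minus strand: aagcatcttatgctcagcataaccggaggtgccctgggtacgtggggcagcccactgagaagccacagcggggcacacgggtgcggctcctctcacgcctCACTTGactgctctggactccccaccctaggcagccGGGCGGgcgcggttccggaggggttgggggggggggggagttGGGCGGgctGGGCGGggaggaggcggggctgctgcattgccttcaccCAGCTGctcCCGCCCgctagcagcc
*Igf1*, chr10:87860861-87861110, plus strand: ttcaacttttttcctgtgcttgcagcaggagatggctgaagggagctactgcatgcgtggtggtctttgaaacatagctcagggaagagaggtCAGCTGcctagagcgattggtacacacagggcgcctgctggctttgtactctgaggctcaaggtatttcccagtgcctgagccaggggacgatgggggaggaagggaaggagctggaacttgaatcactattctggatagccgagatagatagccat
*Igfbp5*, chr1:72874866-72875115, minus strand: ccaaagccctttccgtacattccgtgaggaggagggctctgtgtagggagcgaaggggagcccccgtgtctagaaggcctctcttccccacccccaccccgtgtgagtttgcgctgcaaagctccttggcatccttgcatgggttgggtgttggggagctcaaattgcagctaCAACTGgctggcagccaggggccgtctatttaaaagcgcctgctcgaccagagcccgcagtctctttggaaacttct
The *Ngfr* window held 4 GC boxes and 2 E-boxes at a GC content of 70.4%, against a median of 52.4% over all windows. The *Igf1* window held 1 E-box, 1 CCAAT box on the other strand and 0 GC boxes at 52.8% GC, and the *Igfbp5* window 1 E-box at 58.8% GC. Of the 32851 promoter windows of this length, 32.7% held a GC box, 66.2% an E-box and 33.8% a CCAAT box (CCAAT on either strand), and no marked motif overlapped another in these windows. These matches describe letters and not bound sites. The *Igf1* window lies within the longer gene model of GENCODE M21, whose first base is further upstream, and the *Ngfr* and *Igfbp5* windows reach into the first bases of theirs.

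*Ngfr* (ENSMUSG00000000120, chromosome 11 from 95568818 to 95587735 on GRCm38), the gene of p75, was measured at 31.5, 23.6 and 44.4 CPM in the 3 samples of P0. At P4 the samples held 62.1, 114 and 324 CPM, and at P8 they held 109, 84.9 and 98.0 CPM. Every P4 and every P8 sample thus lay above every P0 sample, while P4 and P8 overlapped and the P4 samples were spread 5.23-fold. At P14 *Ngfr* was measured at 40.9, 11.7 and 5.18 CPM, and at P21 at 2.34, 22.0 and 1.60 CPM. All of these lay below every P4 and P8 sample, and P14 and P21 overlapped each other.

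The P0 mean of *Ngfr* was 33.2 ± 10.5 CPM (SD, n = 3), and the P4 mean was 167 ± 139 CPM. It was 97.2 ± 11.9 CPM for P8, 19.2 ± 19.0 CPM for P14 and 8.66 ± 11.6 CPM for P21. The P4 mean was 5.03-fold that of P0 and 19.3-fold that of P21. On the log2 scale the fitted P4 − P0 difference was 2.33 (SE 0.85), and without P4 replicate 3, the sample at 324 CPM, it was 1.37. The fitted P21 − P4 difference was -4.25 (SE 0.94), and without P21 replicate 2, the only P21 sample above 2.34 CPM, it was -6.43. Among the 14293 tested genes, 124, *Ngfr* included, had a fitted P4 − P0 difference at least as high together with a P21 − P4 difference at least as low. At P4 the sample with the highest *Ngfr*, replicate 3, also had the highest sum of granule cell progenitor markers (210 CPM against 110 and 88.1), the lowest glial sum (5315 CPM against 9024 and 7501) and the lowest Purkinje cell sum (10469 CPM against 11720 and 17387). The part of these cell types in the *Ngfr* level was not tested.

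**Figure D2:**
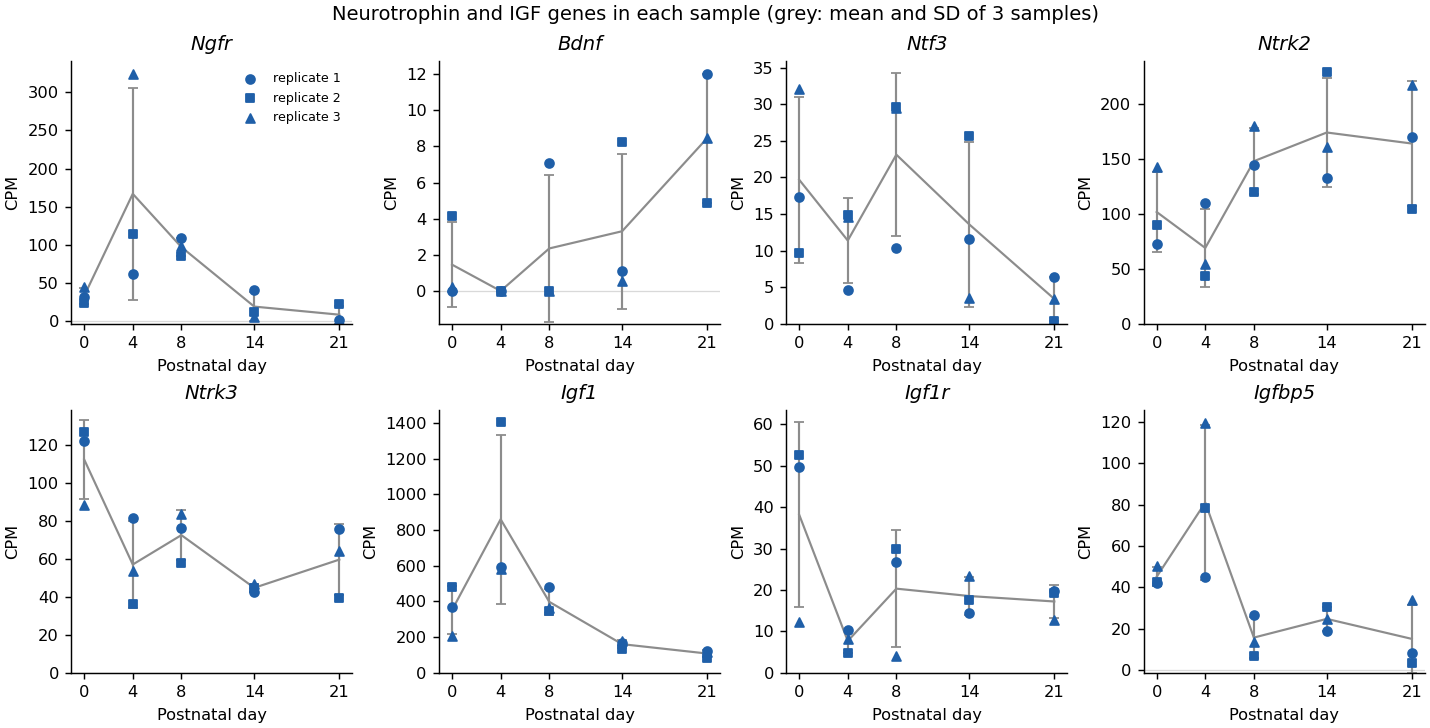
CPM of each of the 8 genes against postnatal day, with 1 point per sample (circle, square and triangle for replicates 1, 2 and 3) and the mean with SD of 3 samples in grey; each panel has its own scale. *Ngfr*, *Igf1* and *Igfbp5* have their highest mean at P4 (*Ngfr* at P8 without P4 replicate 3), whereas *Bdnf* is at 0 in all 3 P4 samples and *Ntrk3* and *Igf1r* have their highest mean at P0.

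In CPM the neurotrophin ligands had means of at most 8.46 (*Bdnf*, at P21) and 23.1 (*Ntf3*, at P8). *Bdnf* (ENSMUSG00000048482, chromosome 2 from 109674700 to 109727007) had no count in any P4 sample, where 3 counts correspond to a mean of 0.546 CPM. The P0 samples held 0, 4.17 and 0.203 CPM, the P8 samples 7.06, 0 and 0 CPM, and the P14 samples 1.10, 8.24 and 0.576 CPM. Its highest values as a group were at P21, with 12.02, 4.87 and 8.49 CPM, and these lay above every P0 and P4 sample but overlapped P8 and P14. The P21 mean of 8.46 ± 3.57 CPM (SD, n = 3) was 15.5-fold the mean P4 floor of 3 counts per library. That floor covers counting error only, so the fold over P4 itself is not known. Against P0 the fitted log2 difference of P21 was 2.52 (SE 2.07), and it was 6.08 without P0 replicate 2, which held nearly all P0 counts. At P0, P8 and P14 the sample with the highest *Bdnf* also had the highest granule neuron marker sum (290, 707 and 1025 CPM). At P21 the highest sum (550 CPM) was in replicate 3 and the highest *Bdnf* in replicate 1. The P4 samples, without *Bdnf* counts, had a mean sum of 345 CPM. The part of granule neurons in the *Bdnf* level was not tested.

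*Ntf3* (ENSMUSG00000049107, chromosome 6 from 126101412 to 126166910), the gene of NT-3, was measured at 17.3, 9.72 and 32.0 CPM at P0 and at 4.66, 14.9 and 14.6 CPM at P4. The P8 samples held 10.3, 29.6 and 29.5 CPM and the P14 samples 11.6, 25.7 and 3.46 CPM. From P0 to P14 neighbouring time points therefore overlapped. At P21 the samples held 6.34, 0.424 and 3.36 CPM, below every P0 and P8 sample. The mean went from 19.7 ± 11.3 CPM (SD, n = 3) at P0 to 3.38 ± 2.96 CPM at P21, a fitted log2 difference of -2.56 (SE 0.95). Per kilobase of exon the level of *Ntf3* was above that of *Bdnf* in mean at P0, at 11.5 ± 6.62 against 0.234 ± 0.378 RPKM (CPM per kilobase of exon), whereas at P21 the levels of 1.97 ± 1.73 and 1.36 ± 0.575 RPKM differed by less than their spread.

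*Ntrk2* (ENSMUSG00000055254, chromosome 13 from 58806569 to 59133970) encodes TrkB, and gene counts do not separate its full-length from its truncated, kinase-less transcripts. Its samples held 72.7, 90.1 and 142 CPM at P0 and 109, 43.2 and 54.1 CPM at P4. At P8 they held 145, 119 and 180 CPM, all above every P4 sample. The P14 samples held 132, 229 and 161 CPM and the P21 samples 170, 104 and 218 CPM, and P8, P14 and P21 overlapped one another. The lowest mean was 68.9 ± 35.5 CPM (SD, n = 3) at P4 and the highest 174 ± 49.9 CPM at P14, 2.53-fold above it. The fitted P4 − P0 log2 difference of -0.57 (SE 0.37) was -1.09 without P4 replicate 1 and -0.28 without P0 replicate 3. Without P14 replicate 2 or P21 replicate 2 the highest mean was at P21. Astrocytes are known to express *Ntrk2*. The mean sum of the 8 glial markers was 9162 CPM at P8 and 4131 CPM at P21, mostly through *Fabp7* (4662 and 186 CPM). Of the others, *Slc1a3* had means of 2388, 3522 and 2511 CPM at P8, P14 and P21, *Gdf10* of 276, 508 and 261 CPM, *Hopx* of 89.1, 169 and 144 CPM and *Sept4* of 290, 682 and 759 CPM, beside 148, 174 and 164 CPM for *Ntrk2*. By contrast *Aqp4*, *Gfap* and *Aldh1l1* fell in mean over these time points. Their means were 988, 486 and 200 CPM, 281, 95.5 and 28.0 CPM, and 188, 103 and 42.2 CPM. The part of glial cells in the *Ntrk2* level was not tested.

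*Ntrk3* (ENSMUSG00000059146, chromosome 7 from 78175959 to 78738012), the TrkC gene, was highest at P0, where the samples held 122, 127 and 88.4 CPM. The P4 samples held 81.7, 36.1 and 53.5 CPM, the P8 samples 76.4, 57.8 and 83.6 CPM, and the P14 samples 42.5, 44.8 and 47.0 CPM. Every later sample lay below every P0 sample, P21 included, which held 75.8, 39.2 and 64.1 CPM. The fitted P4 − P0 log2 difference was -0.98 (SE 0.33), and P21 differed from P4 by 0.07 (SE 0.33), a direction that turned to -0.21 when counts were scaled to the total alone, to -0.18 without P4 replicate 2 and to -0.14 without P21 replicate 1.

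Per kilobase of exon, *Ntrk2* exceeded *Ntrk3* in 14 of 15 samples. The ratio of their RPKM was 0.931, 1.11 and 2.52 at P0 and 2.09, 1.87 and 1.58 at P4. It was 2.96, 3.23 and 3.36 at P8, above every sample of P0 and P4, and then 4.86, 8.0 and 5.34 at P14 and 3.51, 4.17 and 5.31 at P21. The P14 and P21 ratios lay above every P8 ratio and overlapped each other. The RNA levels of *Ngfr* and *Ntrk2* were compared in the same way. The *Ngfr* to *Ntrk2* ratio was 2.43, 1.47 and 1.75 at P0. It was 3.18, 14.8 and 33.5 at P4 and between 3.06 and 4.20 at P8. At P21 it was 0.0770, 1.18 and 0.0412, so that *Ngfr* had the lower RPKM in 2 of 3 samples there. Ratios within a sample do not depend on the scaling between samples, although RPKM rests on exon lengths that pool all annotated transcripts of a gene.

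**Figure D3:**
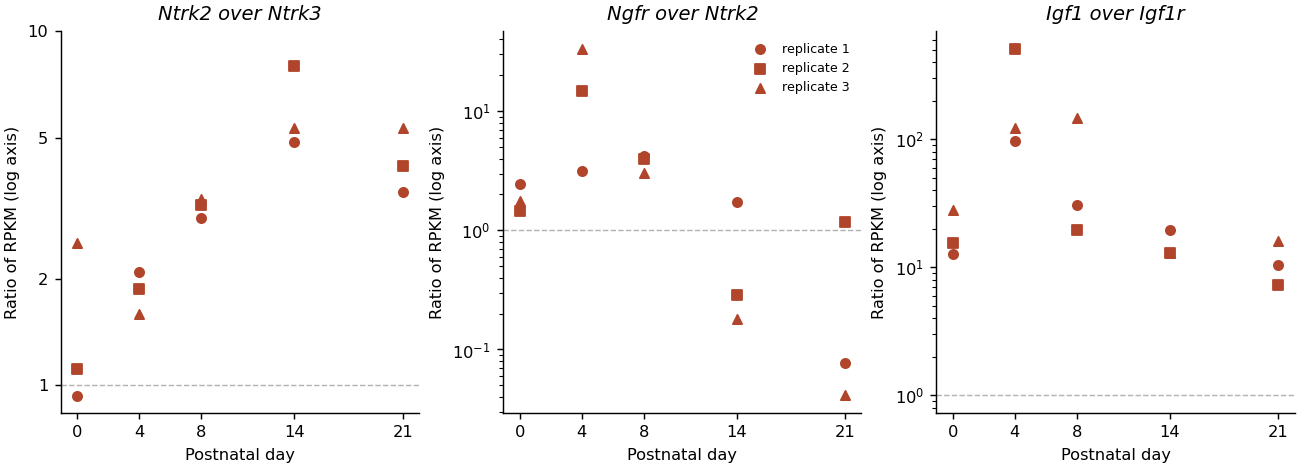
Ratio of RPKM within each sample (log axis) against postnatal day for *Ntrk2* over *Ntrk3*, *Ngfr* over *Ntrk2* and *Igf1* over *Igf1r*; the dashed line marks equal RPKM and circles, squares and triangles are replicates 1, 2 and 3. The first ratio has a mean of 1.52 at P0 and 6.07 at P14, the second falls below 1 in 2 of 3 samples at P14 and at P21, and the third has its highest mean at P4, where the samples lie between 97.4 and 512.

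*Igf1* (ENSMUSG00000020053, chromosome 10 from 87858265 to 87937042) had the highest mean RPKM of the 8 genes at every time point, from 86.9 at P4 down to 10.9 at P21. Its samples held 370, 479 and 206 CPM at P0 and 592, 1407 and 585 CPM at P4, so that each P4 sample lay above each P0 sample. The P8 samples held 483, 349 and 362 CPM, the P14 samples 167, 135 and 179 CPM and the P21 samples 121, 83.0 and 119 CPM. From P4 on every time point lay below the preceding one without overlap. The mean at P4, 861 ± 473 CPM (SD, n = 3), was 2.45-fold that of P0 and 8.002-fold that of P21 (108 ± 21.3 CPM). The fitted P4 − P0 log2 difference was 1.29 (SE 0.34) and 0.74 without P4 replicate 2, the sample at 1407 CPM, while the P21 − P4 difference was -3.00 (SE 0.36) and -2.45 without that sample. That library also had the highest Purkinje cell marker sum of P4, and the part of cell content in the *Igf1* level was not tested.

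*Igf1r* (ENSMUSG00000005533, chromosome 7 from 67952827 to 68233668) ran the other way between P0 and P4. It was measured at 49.6, 52.6 and 12.4 CPM at P0 and at 10.3, 4.66 and 8.05 CPM at P4, with no overlap, and the P0 mean was 4.98-fold that of P4. The P8 samples were split, with 26.8, 29.9 and 4.16 CPM. The P14 samples held 14.5, 17.6 and 23.4 CPM and the P21 samples 19.7, 19.3 and 12.7 CPM, all above every P4 sample and overlapping P0. The fitted log2 difference was -2.32 (SE 0.72) for P4 − P0 and 1.17 (SE 0.70) for P21 − P4. Within samples the *Igf1* to *Igf1r* RPKM ratio was 97.4, 512 and 123 at P4, against 12.6, 15.4 and 28.3 at P0 and 10.4, 7.30 and 15.9 at P21, so the P4 ratios lay above those of both ends of the course. At P8 it was 30.5, 19.7 and 148, the last of these within the range of P4.

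*Igfbp5* (ENSMUSG00000026185, chromosome 1 from 72857932 to 72874884), which encodes a secreted protein that binds IGFs, was measured at 42.3, 42.5 and 50.5 CPM at P0 and 45.1, 78.2 and 120 CPM at P4, and the lowest P4 sample overlapped P0. At P8 the samples held 26.6, 6.87 and 13.6 CPM, below every P0 and P4 sample. They remained there at P14, with 19.0, 30.5 and 24.8 CPM, and at P21, with 8.35, 3.18 and 33.6 CPM. The mean was 81.0 ± 37.3 CPM (SD, n = 3) at P4 and 15.7 ± 10.04 CPM at P8, and the fitted P8 − P4 log2 difference was -2.37 (SE 0.69), beside -1.11 (SE 0.34) for *Igf1* and -0.78 (SE 0.81) for *Ngfr*, which turned to 0.14 without P4 replicate 3. The P21 − P4 difference was -2.41 (SE 0.69), or -3.83 without P21 replicate 3, and P4 − P0 was 0.85 (SE 0.66), or 0.41 without P4 replicate 3.

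**Figure D4:**
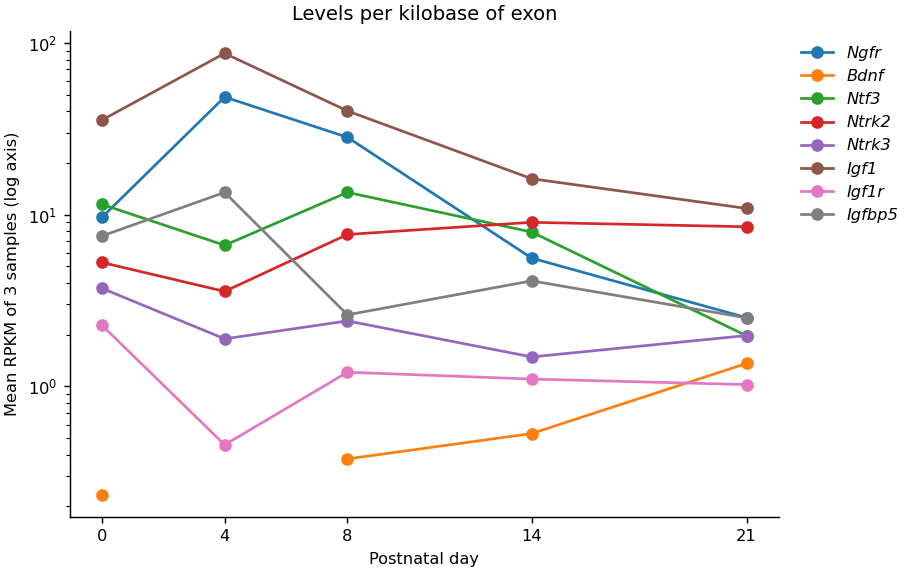
Mean RPKM of 3 samples (log axis) against postnatal day for the 8 genes. Ranks between genes rest on exon lengths that pool all annotated transcripts. In CPM, *Ntrk2* was above *Igf1* in mean at P14 (174 against 160) and P21 (164 against 108). The point of *Bdnf* at P4 is left out because it is 0 there. In RPKM *Igf1* is highest throughout (86.9 at P4), *Ngfr* is second at P4 with 48.4, and at P21 *Ntrk2*, at 8.50, is second to *Igf1*.

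Side by side, *Ngfr* and *Igf1* were the 2 of 8 genes for which every P4 sample lay above every P0 sample, a pattern that 9.12% of tested genes showed, and *Ntrk3* and *Igf1r* the 2 that lay below without overlap, as did 6.04% of tested genes. Between P0 and P21, 5 of 8 (*Ngfr*, *Ntf3*, *Ntrk3*, *Igf1* and *Igfbp5*) were lower without overlap, against 18.2% of tested genes, and 1, *Bdnf*, was higher, against 19.4%. These counts follow from the choice of genes. Scaling to total counts instead of TMM (edgeR's trimmed mean of M-values) shifted the median gene by -0.26 on the log2 scale for P21 − P4 and by -0.36 for P21 − P0.

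To place the 8 genes among their pathways, 133 further genes in 12 lists were examined, of which 121 passed the filter. Of these, 20 rose with postnatal day (16.5%, with a background of 12.1% of tested genes) and 16 fell (13.2%, with a background of 14.1%), with edgeR's slope test and Benjamini-Hochberg adjustment over all genes. A difference among time points passed for 22 of them (18.2%, with a background of 19.3%). The median slope of these genes was -0.000750 log2 units per day, beside -0.00767 over all tested genes. With scaling to total counts the pathway split was 15 rising and 19 falling, and that over all genes moved from 1729 rising and 2021 falling to 1230 and 2874. Without the P0 time point 9 of the pathway genes fell instead of 16. Between neighbouring time points 5 calls were made, each of them a rise, with *Sorl1* called at P8 against P4 and again at P14 against P8. They were 1 at P4 against P0 (1.74% of tested genes rose there and 0.231% fell), 1 at P8 against P4 (0.882% and 0.252%) and 3 at P14 against P8 (1.29% and 1.38%). With so few calls their direction is not read as a result.

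Among the 9 tested receptors and co-receptors 2 rose and 2 fell. *Sorl1*, a member of the family of sortilin, the co-receptor of p75 for proneurotrophins, rose from a mean of 148 ± 65.7 CPM (SD, n = 3) at P0 to 2108 CPM at P21, with a slope of 0.20 log2 units per day (SE 0.02, adjusted p = 7.59e-08). It passed the test at 2 steps, P8 against P4 (1.45 log2 units, adjusted p = 0.0268) and P14 against P8 (1.44 log2 units, adjusted p = 0.0148), although the first was lost without P4 replicate 1, P4 replicate 3, P8 replicate 2 or P8 replicate 3 (adjusted p up to 0.125) and with a replicate block (adjusted p = 0.0555), and the second without P8 replicate 1, P8 replicate 2 or P14 replicate 3 (up to 0.0785). *Sort1*, the sortilin gene, rose from 52.5 to 292 CPM (slope 0.13, SE 0.02, adjusted p = 8.17e-06). In the same list *Kidins220*, a scaffold of p75 and Trk receptors, fell from 374 to 107 CPM (slope -0.09, SE 0.01), and so did *Sorcs1*, from 20.6 to 3.50 CPM (slope -0.15, SE 0.04). Of the 5 that did not pass, *Sorcs3* had its highest mean at P4, with 24.9 CPM against 1.04 at P0, *Sorcs2* stayed between 25.4 and 40.6 CPM in mean, and *Lingo1*, *Rtn4r* and *Nradd* had means of at most 47.0, 7.65 and 4.08 CPM.

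Among the other ligands *Ntf5* had no count in any library, where 3 counts are between 0.388 and 1.001 CPM. In the 14 tested genes that process proneurotrophins or cut p75, 3 rose and 2 fell. The proprotein convertases *Pcsk6* (34.0 to 406 CPM, slope 0.18, SE 0.02) and *Pcsk1* (from 0 at P0 to 62.1 CPM) rose, whereas *Pcsk5* fell from 16.5 CPM to 0 at P21. *Psen2*, a γ-secretase subunit, rose from 26.7 to 59.2 CPM (adjusted p = 0.0426) and *Plat*, tissue plasminogen activator, fell from 37.2 to 7.90 CPM (adjusted p = 0.0324), with its highest mean of 63.0 CPM at P8. Of the 13 p75 partners inside the cell, the JNK kinases *Mapk9* and *Mapk10* rose (62.6 to 179 CPM and 108 to 260 CPM), while the third JNK gene, *Mapk8*, fell (85.1 to 37.1 CPM), together with *Bex1*, a p75-binding protein (154 to 21.6 CPM, slope -0.14, SE 0.02), and *Arhgdia*, the RhoA inhibitor RhoGDI (321 to 226 CPM). Of the 17 Trk adaptors, *Grb2* (63.2 to 240 CPM) and *Shc4* (1.41 to 19.5 CPM) rose and *Gab1* fell (33.7 to 8.41 CPM). *Shc4* had its highest mean at P14 (27.2 CPM) and *Gab1* at P4 (54.5 CPM). Such pairs of values are the means at P0 and P21, and not all courses between them were steady.

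On the IGF side the other 2 receptors did not pass edgeR's slope test (adjusted p = 0.236 for *Insr* and 0.909 for *Igf2r*). *Insr*, the insulin receptor, had means from 54.3 CPM at P0 to 21.2 CPM at P8, and *Igf2r*, which clears IGF2, from 71.8 CPM at P4 to 38.7 CPM at P8. *Igf2* did not pass either. Its P4 samples held 106, 6.86 and 7.02 CPM, and the sample at 106 CPM, replicate 1, also had the highest sum of meningeal and fibroblast markers at P4 (70.4 CPM against 0.129 and 8.57). Whether such cells contributed was not tested.

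Of the 7 tested binding proteins, their proteases and inhibitors, 2 rose and 2 fell. *Igfbp3* rose from 10.4 ± 6.52 CPM (SD, n = 3) at P0 to 65.6 CPM at P21 (slope 0.15, SE 0.03, adjusted p = 0.000651). *Igfbp6* was at 0, 0.198 and 0 CPM at P0 and at 111, 164 and 175 CPM at P14, followed by 61.1, 51.9 and 71.9 CPM at P21, and its slope was 0.37 (SE 0.08, adjusted p = 0.00266). Its step from P0 to P4 passed at an adjusted p of 0.0456, on P4 samples of 17.7, 0 and 2.40 CPM, kept its call under 3 of 19 alternatives and had an adjusted p of 0.238 without P4 replicate 1, the library with the high meningeal sum. *Igfbp2* fell from 29.9 to 2.48 CPM (slope -0.20, SE 0.04, adjusted p = 0.00135) and *Igfbp4* from 19.1 to 0.995 CPM (slope -0.19, SE 0.05, adjusted p = 0.00497). *Igfbp5*, for comparison, had means of 45.1 CPM at P0 and 15.1 CPM at P21. *Igfbp1* was below the filter and *Igfals* had no count. *Pappa*, a protease of binding proteins, and its inhibitors *Stc1* and *Stc2* did not pass, with means of 12.02, 4.38 and 18.2 CPM at P0.

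Downstream of the receptors, in the PI3K, AKT and mTOR list, 5 of 25 tested genes rose and 3 fell. *Rictor*, of the mTORC2 complex, rose from 47.1 to 161 CPM (slope 0.08, SE 0.02, adjusted p = 0.000446), *Akt2* from 44.1 to 105 CPM (highest mean 186 CPM at P14) and *Rheb*, the activator of mTORC1, from 148 to 337 CPM, with a step between P8 and P14 of 1.21 log2 units (adjusted p = 0.00144) that was kept under all 19 alternatives. The regulatory subunits *Pik3r1* and *Pik3r2* fell (83.0 to 32.7 CPM and 86.4 to 26.8 CPM), as did *Akt1* (187 to 87.3 CPM). The 2 smaller rises were those of *Pdpk1* and *Foxo3*. Among the receptor adaptors *Irs2* rose (15.3 to 41.2 CPM, adjusted p = 0.0447). In the RAS, RAF and ERK list *Map2k1* rose from 27.2 to 178 CPM (slope 0.15, SE 0.02, adjusted p = 1.15e-06), whereas *Nras* fell from 389 to 71.5 CPM (slope -0.12, SE 0.02, adjusted p = 1.48e-05) and *Mapk7* from 54.4 to 15.4 CPM. The *Map2k1* step from P8 to P14 passed as well (1.37 log2 units, adjusted p = 0.0120), but not without P8 replicate 2, P8 replicate 3 or P14 replicate 3 (adjusted p up to 0.0724). Of the 11 tested genes of ERK feedback or induction, 1 rose, 1 fell and 9 did not pass the slope test. *Fos* rose from 0.331 to 46.6 ± 29.0 CPM (SD, n = 3) and the feedback inhibitor *Spry4* fell from 17.8 to 1.85 CPM. The calls of *Psen2*, *Irs2*, *Akt2*, *Mapk7*, *Plat*, *Akt1*, *Arhgdia*, *Pdpk1*, *Spry4*, *Pik3r2*, *Shc4* and *Foxo3* were lost under 2 or more of 23 alternatives, among them single libraries left out.

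**Figure D5:**
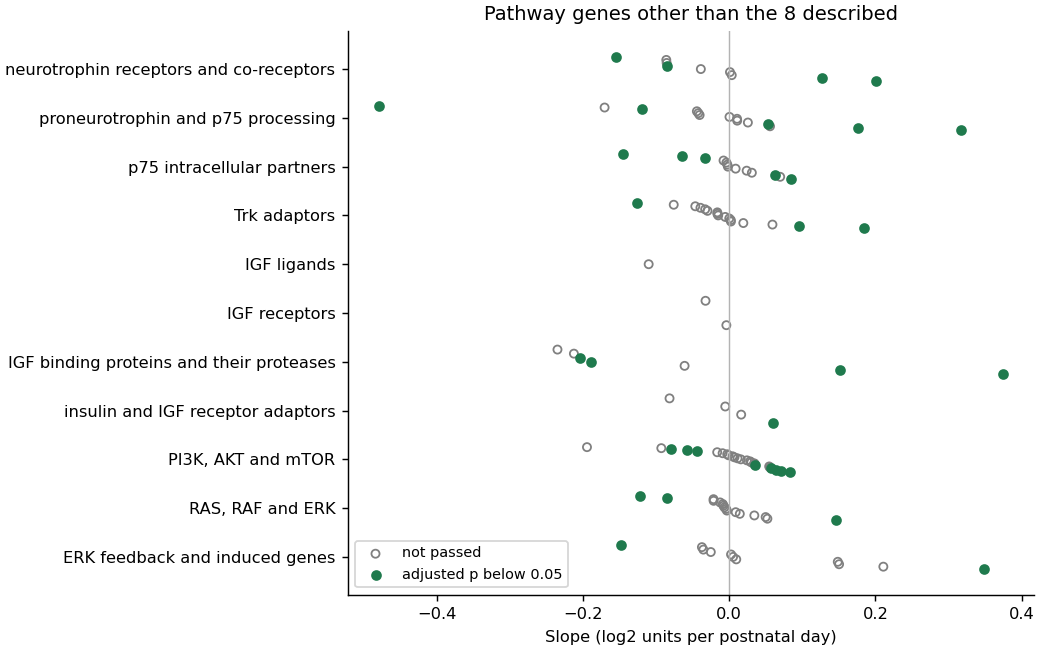
Slope on postnatal day (log2 units per day) of 119 tested pathway genes other than the 8 described, by list; filled points passed an adjusted p of 0.05 and open points did not. Filled points lie on both sides of 0 in most lists with several genes, from -0.48 for *Pcsk5* to 0.37 for *Igfbp6*.

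The genes whose log2 CPM followed each of the 8 most closely over the 15 samples were searched among 10708 protein-coding genes. They are given as a description, since the samples share libraries and depth. Each r is among the highest of all genes searched, so a high r and a shared time of highest mean follow from the selection. For *Ngfr* they were *Nme2* (Pearson's r = 0.908), *Gng3* (0.901) and *Zfp326* (0.893), all with their highest mean at P4, and *Gng3*, a G protein subunit, went from 590 ± 37.0 CPM (SD, n = 3) at P0 to 842 ± 51.2 at P4 and 248 ± 114 at P21. For *Igf1* they were *Rps16* (0.900), *Chst3* (0.897) and *Cdc26* (0.896), and for *Igfbp5* *Mcu* (0.924), *Smoc1* (0.912) and *Gusb* (0.911), which likewise had their highest means at P4. They were *Caskin1* (0.859), *Jakmip3* and *Celf1* for *Bdnf*, among 10709 genes, and *Tor2a* (0.891), *Snrnp40* and *Mphosph9* for *Ntf3*. For the receptors they were *Fam20a* (0.872), *Galnt10* and *Man1a* for *Ntrk2*, *Celsr3* (0.873), *Pbrm1* and *Dennd2a* for *Ntrk3*, and *Slc7a1* (0.832), *Sf3b3* and *Eps15l1* for *Igf1r*. Exons of *Nme2*, *Gng3*, *Caskin1*, *Tor2a*, *Celsr3*, *Man1a*, *Pbrm1*, *Dennd2a*, *Sf3b3*, *Bex1*, *Shc4*, *Sorl1*, *Sort1*, *Irs2*, *Mapk7* and *Igf2* overlap those of another counted gene. So do exons of the markers *Pcp2*, *Top2a*, *Aldh1l1*, *Hopx* and *Sept4*. Ribosomal protein genes such as *Rps16* have near-identical pseudogene copies. The counts of all these genes are less certain. Among the 8 genes only *Bdnf* has an overlapping annotated gene, on the opposite strand and absent from the counted genes.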

How the data were processed

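RNA of laser-captured PCs was amplified and sequenced in 15 libraries, 3 biological replicates at each of 5 time points. The authors trimmed the reads (cutadapt 1.2.1), aligned them with GSNAP (to GRCm38/mm10 per the labels) and deposited the counts per Ensembl gene made by HTSeq 0.5.3p9, as whole numbers without normalization. The annotation release used for counting is not given in the sources used here. Reads outside genes or ambiguous, 18.2% to 31.0% of each file, were left out, and counts on genes came to between 3409371 and 7814951 per library, so that 3 counts, taken as the floor, correspond to 0.388 to 1.001 CPM. These floors cover counting error only.

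Gene names, positions and exon lengths came from GENCODE M21 (36723 of 38561 identifiers matched) and promoter windows from RefSeq on GRCm38.p6, with a window for 7 of the 8 genes and none for *Ntrk3*. CPM used TMM library sizes, and RPKM divided CPM by summed exon length. Genes passing filterByExpr were tested in R 4.3.3 with edgeR 4.0.16 (quasi-likelihood F test over all 15 samples), once with postnatal day as a number and once with the time point as a factor, and p-values were adjusted by Benjamini-Hochberg over all genes tested. Alternatives used DESeq2 1.42.0, limma 3.58.1, other scalings and filters, the day on a log scale, a replicate block and samples left out. The tests were also tried on simulated counts with the spread fitted to these samples, in which only genes above a mean of 10 CPM were changed. The slope test recovered 58.5% of 200 genes with a simulated slope of 0.1 log2 units per day. The test among time points recovered 90.5% of 200 genes with an 8-fold transient at P4. A pathway gene that did not pass may therefore still change. Figures were drawn with matplotlib 3.10.9.

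The 8 genes, the pathway lists and the markers were chosen with earlier results of these data known. Named pathway genes are the 3 largest rises and the 3 largest falls in slope among those passing in each list, with ligands, receptors and binding proteins named whatever their test (some genes are not reported here), and the 3 protein-coding genes most correlated with each of the 8 among those reaching a mean of 10 CPM at 1 time point. Other genes named singly were added after their values were seen. No sample stood apart as a copy of another: replicates differed by more than sampling noise.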

Additional observations from a re-analysis of the deposited data

How the results depend on the processing

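The fitted P4 − P0, P21 − P4 and P21 − P0 differences of the 8 genes (for *Bdnf* P21 − P0 alone) kept their direction under each alternative run for them, apart from the small P21 − P4 difference of *Ntrk3*. For these differences limma-voom, the DESeq2 test and the day on a log scale were not run. The P8 − P4 difference, examined so for *Ngfr*, *Igf1* and *Igfbp5* after seeing the data, turned for *Ngfr* without P4 replicate 3 (0.14 against -0.78). With 3 samples per time point, single libraries set the size of several log2 differences. Leaving out each in turn gave 1.90 to 6.08 for *Bdnf* P21 − P0, -1.09 to -0.28 for *Ntrk2* P4 − P0, 0.74 to 1.55 for *Igf1* P4 − P0, -3.21 to -2.45 for *Igf1* P21 − P4, -6.43 to -3.34 for *Ngfr* P21 − P4, -4.10 to -1.40 for *Ngfr* P21 − P0, -3.83 to -1.93 for *Igfbp5* P21 − P4 and -2.99 to -1.08 for *Igfbp5* P21 − P0. *Ngfr* P4 − P0 stayed between 1.37 and 2.70. Calls at the 4 steps depended most on the tool: the pathway genes had 5, but 8 without the filter on low counts, 10 with limma-voom, 14 with DESeq2 and 2 to 6 with a library left out, and all genes had 872, but 2288 with DESeq2 and 540 to 960 with a library left out. Pathway genes with any difference among time points numbered 22, and 34 with DESeq2. Falling pathway genes numbered 16, but 9 without the P0 time point, which has 3 samples fewer, and 10 to 18 with a library left out. The causes were not tested. Of the 36 pathway genes past the slope test, 18 kept their call under every alternative and 6 lost it under 1. Replicate numbers did not pair the samples: deviations from the time point means correlated at a mean of -0.00329 over 30 pairs with the same number and 0.00165 over 60 with different numbers. With the replicate block 20 pathway genes rose, 14 fell and 24 differed among time points, and *Plat* and *Mapk7* lost their slope calls, as did the steps of *Sorl1* from P4 to P8 (adjusted p = 0.0555) and *Igfbp6* from P0 to P4 (adjusted p = 0.102). The depth allows no statement on genes under 3 counts, *Bdnf* at P4 included.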
